A study of Mus musculus with 2 samples.

Results

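The genes described here are 42 markers of crypt stem cells and members of the Wnt pathway, of which 40 had a row in the deposited table of 20722 gene symbols. They were chosen by name, as 11 crypt stem cell markers, 15 of 17 listed Wnt targets and 14 Wnt antagonists, and for a symbol with several transcripts the row of highest mean was taken. Myc and Lef1 were not analysed here. Their RNA was measured in villi purified from mouse small intestine, projections of the mucosa that carry differentiated epithelium. The library from the double knockout, called dKO-labelled below, came from a C57BL/6 mouse of genotype Rosa26-CreERT2 Cdkn2a-/- Ring1a-/- Ring1bf/f, and the control library from a C57BL/6 mouse of genotype Rosa26-CreERT2 Cdkn2a-/-. Both mice thus lacked Cdkn2a, carried a Cre recombinase that tamoxifen activates, driven from the broadly expressed Rosa26 locus, and received 3 tamoxifen injections. The villi were taken at 6 days. The labels give neither the age nor the sex of the mice. Ring1a (Ring1) and Ring1b (Rnf2) are the E3 ligases of Polycomb repressive complex 1, which keeps developmental genes silent.

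Wnt ligands bind Frizzled receptors with the co-receptors LRP5 and LRP6, beta-catenin then escapes degradation, and TCF/LEF factors use it to switch on target genes. In the small intestine this signal is strongest at the crypt base, where it maintains the LGR5-positive stem cells, and fades towards the villus. R-spondins strengthen the signal by clearing the ubiquitin ligases RNF43 and ZNRF3, while secreted antagonists such as DKK1, WIF1 and the SFRP proteins weaken it. Villi hold few crypt cells, and most counts below are low.

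The series had 1 library per genotype, so no difference was checked in replicates, and all values compare 2 libraries. The dKO-labelled library held 1058196 reads and the control library 775827, recovered from the deposited normalised counts. Ratios are reads of the dKO-labelled over the control library after the deposited scaling, with 95% exact counting intervals that cover counting error only. Ring1 had 10 reads in the dKO-labelled library and 10 in the control, and Rnf2 had 82 and 59 (ratio 1.25, 0.886 to 1.78). Their intervals include 1, and counts over whole transcripts do not show a deleted exon. Xist, the RNA of the inactive X chromosome, had 1 read in the dKO-labelled library and 80 in the control, and the Y-linked Ddx3y had 131 and 0 reads, so that the sex of the mice and the genotype label cannot be told apart.

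Stem cell and Wnt pathway genes made up a small share of both libraries. Together they had 1165 reads in the dKO-labelled library, 0.110% of its reads (0.104% to 0.117%), and 499 reads in the control, 0.0643% (0.0588% to 0.0702%). The median member had 10 reads in the dKO-labelled library and 2.5 in the control, where the median over all symbols was 3 and 1. At least 1 read was found for 32 of the 40 members in the dKO-labelled library and for 29 in the control, where the shares over all symbols were 67.2% and 59.2%. Thinned to the depth of the control library, the dKO-labelled library would be expected to detect 30.8 members. The number of unscaled reads was higher in the dKO-labelled library for 26 members (53.4% of all symbols) and lower for 9, and 5 had no read in either library. A symbol without a read in the dKO-labelled library cannot be higher there. Of all symbols 13925 had a read in that library and 11072 had more reads there than in the control. Among the members these counts were 32 and 26. In bulk villi, more cells of a type and more RNA per cell cannot be told apart.

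**Figure D1:**
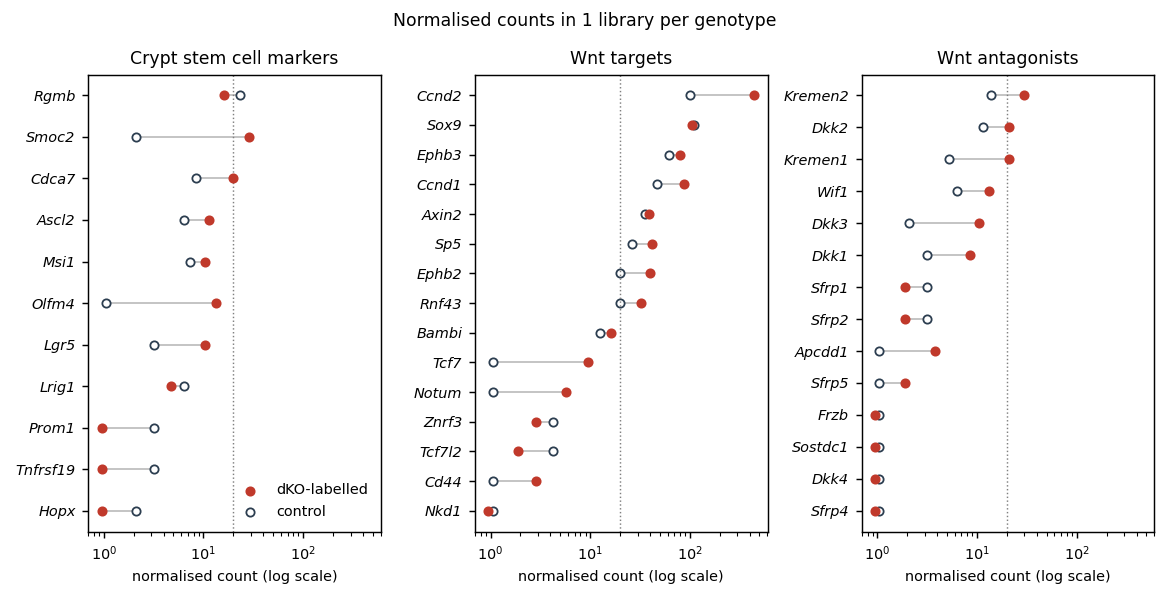
Deposited normalised counts (log axis) of the 40 members in the dKO-labelled library (filled) and the control library (open), by class and ordered by total reads; the dotted line is at 20. Most members lie to the left of that line, and the Wnt targets led by Ccnd2 and Sox9 lie to its right.

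A gene was called measured at a mean of at least 20 normalised counts over both libraries, which 9 members and 29% of all symbols reached. They were 8 Wnt targets, 1 antagonist and none of the 11 stem cell markers. Of these 9, Ccnd2 and Kremen2 were at least 2-fold higher in the dKO-labelled library and 0 were at least 2-fold lower, by log2((dKO + 1)/(control + 1)). Over all 6001 measured genes 26.2% were called higher and 4.18% lower by this rule. The median log2 ratio was 0.66 over the 9 members and 0.51 over all measured genes, and 6 of the members lay above that median and 3 below. The counting interval lay above a ratio of 1 for 4 of the 9 members (Ccnd2, Ccnd1, Ephb2 and Kremen2) and below 1 for 0 of them, against 52.5% and 12.1% of all measured genes. In the authors' deposited table, none (0) of the 40 members had an unadjusted DESeq p-value under 0.05, as had 0.558% of all rows, and the smallest among the members was 0.0604, for Smoc2. With 1 library per genotype these p-values rest on no replicate spread.

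**Figure D2:**
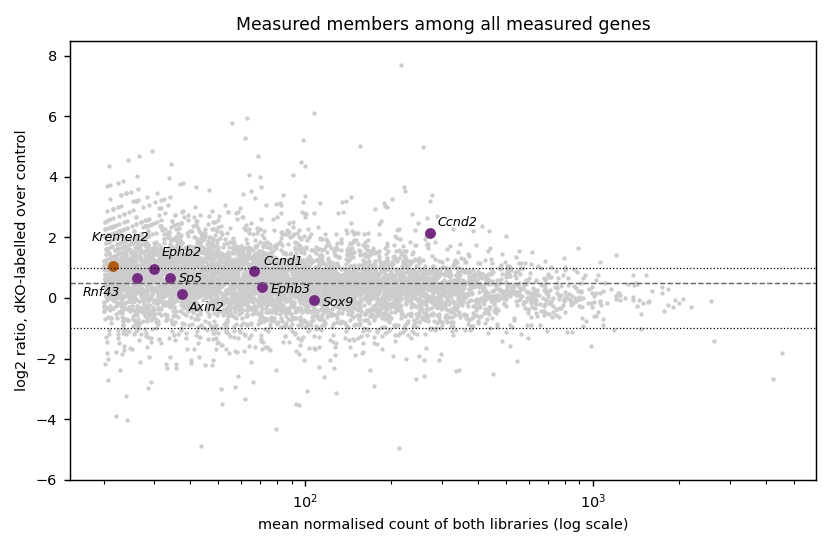
Log2 ratio of the dKO-labelled over the control library against the mean normalised count (log axis) for all measured genes (grey) and for the 9 measured members (violet, Wnt targets; orange, the antagonist Kremen2). Dotted lines mark 2-fold and the dashed line the median of measured genes, 0.51; Ccnd2 stands at 2.14 and Sox9 at -0.07.

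The crypt stem cell markers were examined first. All 11 were in the table and 0 were measured by the threshold of 20. Summed over the list they had 113 reads in the dKO-labelled library and 52 in the control, a ratio of 1.96 (1.40 to 2.78). This corresponds to 0.0107% and 0.00670% of the reads of their libraries. The log2 ratio of the sum was 0.97, and the median of 0.51 over all measured genes lies within its counting interval. The number of markers with more unscaled reads in the dKO-labelled library was 6 (53.4% of all symbols, those without a read included), and 5 had fewer.

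Lgr5, Ascl2, Olfm4 and Smoc2, canonical genes of the crypt base columnar stem cell, had more unscaled reads in the dKO-labelled library. Another 5 of the 11 markers, Rgmb, Lrig1, Tnfrsf19, Prom1 and Hopx, had fewer. Lgr5, which encodes an R-spondin receptor, had 10 reads in the dKO-labelled library and 2 in the control, a ratio of 4.51 with an interval that includes 1 (0.960 to 42.3). Ascl2, a basic helix-loop-helix factor that specifies stem cells, had 11 and 5 reads, a ratio of 1.98 (0.635 to 7.28). For both genes the difference was within counting error.

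Olfm4, a secreted glycoprotein made by stem cells, had 13 reads in the dKO-labelled library and 0 in the control. It was at least 2.75-fold higher by the lower limit of its counting interval, and 3.91-fold against a floor of 3 control reads. Smoc2, a matricellular protein, had 29 reads in the dKO-labelled library and 1 in the control, a ratio of 26.1 with a wide interval (4.33 to 1068). It supplied 25.7% of the stem cell marker reads of the dKO-labelled library (17.9% to 34.7%) and 1.92% of those of the control (0.0487% to 10.3%). Without Smoc2, left out after its value was seen, the list had 84 and 51 reads, a ratio of 1.48 (1.04 to 2.15). On the log2 scale this is 0.57, against the median of 0.51 over all measured genes.

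Rgmb, a co-receptor for bone morphogenetic proteins, had fewer reads in the dKO-labelled library, within counting error. It had 16 reads in the dKO-labelled library and 21 in the control, a ratio of 0.687 (0.335 to 1.38), and its mean of 19.7 normalised counts lay just under the threshold of 20, while Kremen2 at 21.6 lay just above. It was the stem cell marker with the most reads over both libraries, with 14.2% of the list in the dKO-labelled library (8.32% to 21.97%) and 40.4% in the control (27.0% to 54.9%). These 2 intervals do not overlap, and they compare shares within each library, so they need no scaling. A share also depends on the other members of the list, among them Smoc2 with 29 reads in the dKO-labelled library and 1 in the control. The shares are therefore no separate evidence of a lower Rgmb. Without Rgmb the list had 97 and 31 reads, a ratio of 2.82 (1.87 to 4.37).

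Of the other stem cell markers, Cdca7, a chromatin factor of dividing cells, had 20 reads in the dKO-labelled library and 7 in the control (2.58-fold, 1.05 to 7.21). The RNA-binding protein gene Msi1 had 10 and 6 reads, a ratio of 1.502 (0.495 to 5.03), and Lrig1, a feedback inhibitor of ErbB receptors, 4 and 5. Tnfrsf19, Prom1 and Hopx, the last a marker of slowly cycling crypt cells, had 0 reads in the dKO-labelled library and 2, 2 and 1 in the control, too few for a ratio.

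Some members with low counts had several transcripts in the table. Tnfrsf19, Prom1, Hopx, Nkd1 and Tcf7l2 had more than 1 row each, and none of their rows had more than 1 read in the dKO-labelled library or more than 3 in the control. Over all symbols, 14.5% of 1171 symbols with several rows were measured, against 29.8% of 19551 symbols with 1 row. The median symbol with several rows had 2 reads in the dKO-labelled library and 1 in the control, and the median symbol with 1 row had 3 and 1. Of the 35 members with 1 row, 10 also had at most 3 reads in each library. No source used here says how the authors assigned reads that several transcripts share, so the near absence of Tcf7l2, the main TCF factor of the intestinal epithelium, and of Prom1 cannot be read as a low level of their RNA. Cd44 had 1 row but 6 RefSeq transcripts in build GRCm38, and its low count carries the same limit. The part of the counting in these values was not tested.

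**Figure D3:**
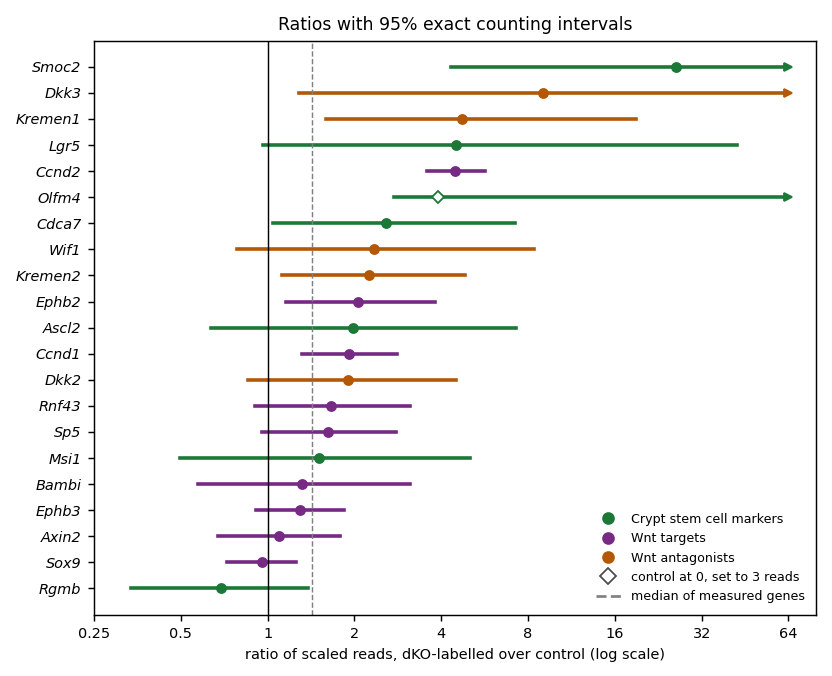
Ratio of scaled reads, dKO-labelled over control (log axis), with 95% exact counting intervals for the 21 members with at least 10 reads in a library, coloured by class. The open diamond (Olfm4) is set against a floor of 3 control reads, arrows mark intervals that go beyond 64, and the dashed line is the median of measured genes; Smoc2 is at the top with a wide interval, while Ccnd2 has the narrowest interval wholly above 2.

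The Wnt targets held most of the reads. The 15 targets in the table had 943 reads in the dKO-labelled library, 80.9% of all member reads (78.6% to 83.2%), and 409 in the control, 82.0% (78.3% to 85.2%). Their summed ratio was 2.08 (1.85 to 2.34), and their median log2 ratio over the 8 measured targets was 0.65, against 0.51 over all measured genes. In numbers of unscaled reads 12 targets were higher in the dKO-labelled library (53.4% of all symbols, those without a read included) and 2 lower.

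The cyclin D genes, which drive entry into the cell cycle, were examined together. Ccnd2 had 444 normalised counts (467 reads) in the dKO-labelled library, against 100.1 (94 reads) in the control, a ratio of 4.48 (3.58 to 5.65). Its log2 ratio of 2.14 was exceeded by 266 of the 6001 measured genes. Ccnd1 had 87.3 normalised counts (91 reads) in the dKO-labelled library and 46.3 (43 reads) in the control, a ratio of 1.91 (1.31 to 2.81).

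The balance of the cyclins was described from the same reads. Ccnd2 supplied 83.7% of the reads of this pair in the dKO-labelled library (80.4% to 86.7%) and 68.6% in the control (60.1% to 76.3%), and the intervals do not overlap. Of all Wnt target reads Ccnd2 made up 49.5% (46.3% to 52.8%) in the dKO-labelled library and 23.0% (19.0% to 27.4%) in the control. Both shares rest on its 467 and 94 reads and are not a result separate from its ratio. Without Ccnd2 the targets had 476 and 315 reads, a ratio of 1.36 (1.18 to 1.58). On the log2 scale this is 0.45, against the median of 0.51 over all measured genes.

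Sox9, a transcription factor of stem and Paneth cells, was the most abundant target in the control per length. It had 105 normalised counts (110 reads) in the dKO-labelled library and 111 (104 reads) in the control, a ratio of 0.953 (0.723 to 1.26). Of the measured genes 4678 had a higher log2 ratio. Its share of the target reads was 11.7% in the dKO-labelled library (9.69% to 13.9%) and 25.4% in the control (21.3% to 29.9%), intervals that do not overlap. The same sum holds Ccnd2, with 467 reads in the dKO-labelled library and 94 in the control. The lower share is thus not a result separate from that of Ccnd2.

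Axin2, the scaffold of the beta-catenin destruction complex and a widely used readout of Wnt signalling, also lay near a ratio of 1. It had 38.9 normalised counts (40 reads) in the dKO-labelled library and 35.8 (33 reads) in the control, a ratio of 1.09 (0.672 to 1.79). Rnf43, which removes Frizzled from the cell surface, had 33 and 18 reads, a ratio of 1.65 (0.904 to 3.12). The related Znrf3 had 2 reads in the dKO-labelled library and 3 in the control. Of the feedback inhibitors among the targets, none was beyond counting error in either direction. Notum, an esterase that inactivates Wnt, had 5 and 0 reads, with an interval whose lower limit was 0.826, and Nkd1 had none.

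Sp5, a zinc finger factor that responds directly to Wnt, had 41.8 normalised counts (43 reads) in the dKO-labelled library and 26.3 (24 reads) in the control, a ratio of 1.61 (0.958 to 2.78). Its promoter is shown because among the 6 measured members whose promoters were searched it alone held a TCF/LEF match, in capitals below. The promoters of Ccnd2, Ccnd1 and Sox9 were not analysed here. RefSeq promoters of build GRCm38.p6, from 250 bases before to 50 after the start of the gene, were searched on both strands for CTTTGAA and CTTTGAT, which cannot overlap each other on the same strand. The promoter of the antagonist Kremen2, which was called higher, is set beside it and held no match. Both are written 5′ to 3′ on the strand of the gene, Sp5 at chr2:70474673-70474972 (plus strand) and Kremen2 at chr17:23745780-23746079 (minus strand).
Sp5: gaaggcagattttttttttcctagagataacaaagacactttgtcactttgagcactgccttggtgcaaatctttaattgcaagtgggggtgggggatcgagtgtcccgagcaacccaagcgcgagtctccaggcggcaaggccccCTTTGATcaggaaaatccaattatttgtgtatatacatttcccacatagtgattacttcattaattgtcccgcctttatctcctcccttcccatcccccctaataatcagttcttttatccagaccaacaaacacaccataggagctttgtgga
Kremen2: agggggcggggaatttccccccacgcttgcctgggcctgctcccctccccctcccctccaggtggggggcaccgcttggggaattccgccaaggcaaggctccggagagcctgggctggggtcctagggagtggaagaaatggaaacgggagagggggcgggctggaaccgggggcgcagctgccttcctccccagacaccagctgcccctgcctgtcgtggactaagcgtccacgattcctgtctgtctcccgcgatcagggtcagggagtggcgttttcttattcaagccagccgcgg

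The reference table held 32 promoters of 24 members. A match was found in 3 of them (9.38%), the promoters of Sp5, Dkk1 and Tnfrsf19, against 8.65% of all 32851 promoters, so the members did not stand apart by this motif. Their median ratio of observed to expected CpG was 0.640, against 0.384 over all promoters, and their median GC content 60.7% against 52.7%. The CpG ratios ranged from 0.204, for a promoter of Rnf43, to 1.03, for a promoter of Rgmb.

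Ephb2 and Ephb3, receptors that sort cells along the axis from crypt to villus, both had more reads in the dKO-labelled library. Ephb2 had 39.9 normalised counts (41 reads) in the dKO-labelled library and 20.01 (18 reads) in the control, a ratio of 2.05 (1.15 to 3.80). Its log2 ratio with the pseudocount was 0.96, just under the 2-fold limit. Ephb3 had 79.8 normalised counts (83 reads) and 62.1 (58 reads), a ratio of 1.29 (0.911 to 1.84).

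Fewer reads were found for the remaining targets. Bambi, a pseudoreceptor that dampens bone morphogenetic protein signals, had 16 reads in the dKO-labelled library and 11 in the control, a ratio of 1.31 (0.571 to 3.12). Tcf7, a TCF factor that T lymphocytes also express, had 9 and 0 reads, at least 1.78-fold higher by the lower limit of its interval, and Tcf7l2 had 1 and 3. Cd44, the hyaluronan receptor, had 2 reads in the dKO-labelled library and 0 in the control, so that no fold is given.

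Levels were compared between genes as reads per kilobase of transcript, within each library. In the dKO-labelled library the order was Ccnd2 (73.8 reads per kilobase), Sox9 (26.6), Ccnd1 (24.3), Sp5 (20.5), Ephb3 (19.8) and Kremen2 (14.1). In the control it was Sox9 (25.2), Ccnd2 (14.8), Ephb3 (13.9), Ccnd1 (11.5), Sp5 (11.4) and Axin2 (7.75). Of the stem cell markers, Smoc2 (10.2), Cdca7 (8.25), Olfm4 (7.93) and Ascl2 (6.85) led in the dKO-labelled library, a range that holds the targets Axin2 (9.39) and Rnf43 (7.66). In the control Rgmb (3.69), Ascl2 (3.12) and Cdca7 (2.89) led, on 21, 5 and 7 reads. They lay above the target Ephb2 (1.65) and below every other measured target, from Rnf43 (4.18) to Sox9 (25.2). Lgr5 stood at 2.12 reads per kilobase in the dKO-labelled library and 0.424 in the control.

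Wnt antagonists came last and were scarce. The 14 genes had 109 reads in the dKO-labelled library and 38 in the control, a ratio of 2.59 (1.77 to 3.85). They made up 9.36% of member reads in the dKO-labelled library (7.75% to 11.2%) and 7.62% in the control (5.45% to 10.3%), shares that overlap. Of the 14, 10 had a read in the dKO-labelled library and 8 in the control.

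The Kremen co-receptors, through which Dickkopf proteins remove LRP6, were the most counted antagonists next to Dkk2. Kremen2 had 29.4 normalised counts (30 reads) in the dKO-labelled library and 13.7 (12 reads) in the control, a ratio of 2.25 (1.12 to 4.83). An opposite-strand gene, 9530082P21Rik, overlaps its exons and had 38 reads in the dKO-labelled library and 65 in the control. The library kit does not mark strand, so the reads of this pair cannot be told apart. In GENCODE M21, exons of opposite-strand genes overlap 9 of the 40 members, Ccnd2, Ccnd1 and Axin2 among them. For Ccnd2 the overlapping gene with a row, 9330179D12Rik, had 0 reads in both libraries. Kremen1 had 21 reads in the dKO-labelled library and 4 in the control, a ratio of 4.73 (1.60 to 19.0). It supplied 41.2% of the Kremen reads in the dKO-labelled library (27.6% to 55.8%) and 25.0% in the control (7.27% to 52.4%), which overlap.

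The Dickkopf genes encode secreted proteins, of which DKK1 and DKK2 bind LRP6. Dkk2 had 21 reads in the dKO-labelled library and 10 in the control, a ratio of 1.89 (0.853 to 4.50). Dkk1 had 8 and 2 reads, and Dkk4 had none. Dkk3, a divergent family member, had 10 reads in the dKO-labelled library and 1 in the control, a ratio of 9.01 with a wide interval (1.28 to 391).

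Among antagonists that bind Wnt itself, Wif1 had 13 reads in the dKO-labelled library and 5 in the control, a ratio of 2.34 (0.784 to 8.40). The secreted Frizzled-related genes were close to absent. Sfrp1 and Sfrp2 had 1 read each in the dKO-labelled library and 2 each in the control, Sfrp5 had 1 and 0, and Sfrp4 and Frzb had none in either library. The bone morphogenetic protein and Wnt antagonist gene Sostdc1 had none either, and the membrane inhibitor gene Apcdd1 had 3 reads in the dKO-labelled library and 0 in the control, at the floor. A count of 0 allows up to 3 reads in a library.

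The rest of the pathway was taken from 5 further lists of 68 genes, 63 of them in the table. Of 20 measured genes 4 were called higher in the dKO-labelled library and 1 lower, with a median log2 ratio of 0.51, the same as that of all measured genes. Over all measured genes 26.2% were called higher and 4.18% lower, so this count is near the background. The genes called higher were Amer1, Bcl9, Wnt4 and Lrp6, and the gene called lower was Fzd7.

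Among the ligands Wnt4 had 250 reads in the dKO-labelled library and 81 in the control, a ratio of 2.78 (2.16 to 3.62), and it held most ligand reads (287 and 86 over 19 genes). Of the 19 ligands 10 had no read in either library. Receptors and co-receptors had 211 reads in the dKO-labelled library and 162 in the control (ratio 1.17, 0.952 to 1.45), with the co-receptor gene Lrp6 at 49 and 17 reads, Lrp5 at 70 and 73, and Fzd7, a Frizzled receptor of stem cells, at 31 and 65 (2.33-fold lower). For Lrp5 the ratio was 0.864 (0.614 to 1.22).

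R-spondins and their receptors had 61 reads in the dKO-labelled library and 28 in the control. The receptor gene Lgr4 supplied 49 and 28 of these, a ratio of 1.58 (0.972 to 2.61), and the 4 R-spondin genes and Lgr6 the other 12 and 0. Secretion and transduction genes had 1447 and 1062 reads (ratio 1.23, 1.13 to 1.33). Amer1, which recruits APC to the membrane, had 36 and 8 reads, Dvl1, which encodes a Dishevelled protein, 127 and 59, Tnks2, a tankyrase that marks AXIN for degradation, 178 and 94, and Gsk3b, a kinase of the destruction complex, 159 and 106. Nuclear cofactors had 787 and 458 reads (ratio 1.55, 1.38 to 1.74), with the beta-catenin partner genes Bcl9 at 39 and 9 and Bcl9l at 62 and 32, the PHD finger gene Pygo2 at 156 and 94 and the intestinal homeobox gene Cdx2 at 278 and 127.

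**Figure D4:**
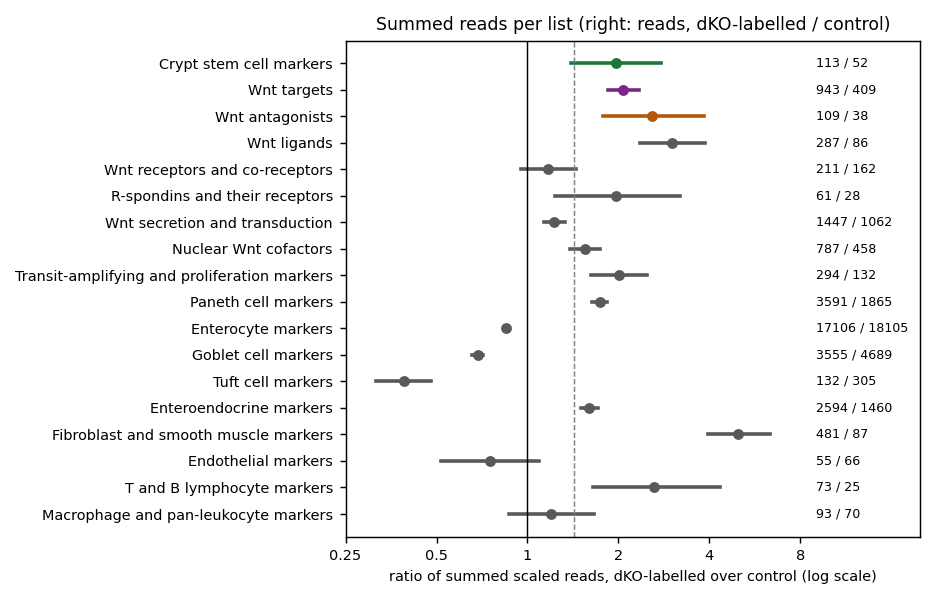
Ratio of summed scaled reads, dKO-labelled over control (log axis), with 95% exact counting intervals for the 3 member classes (coloured) and the other lists (grey); reads of both libraries stand at the right and the dashed line is the median of measured genes. The member classes lie between 1.96 and 2.59, fibroblast and smooth muscle markers at 4.98 and tuft cell markers at 0.390.

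Summed reads of some other cell types were also higher in the dKO-labelled library. Those of enterocyte, goblet and tuft cell markers were lower, for enterocytes only with Apob counted. The endothelial sum was lower within counting error. Fibroblast and smooth muscle markers had 481 reads in the dKO-labelled library and 87 in the control, a ratio of 4.98 (3.96 to 6.34). They had 0 to 72 reads per gene in the dKO-labelled library and 0 to 21 in the control. Of the 16 genes 15 had more unscaled reads in the dKO-labelled library (53.4% of all symbols, those without a read included), and Dcn was at 0 in both. T and B lymphocyte markers had 73 and 25 reads (ratio 2.63, 1.65 to 4.33), with 0 to 17 and 0 to 8 per gene. Of their 13 genes 9 had more unscaled reads in the dKO-labelled library, beside the same 53.4% of all symbols. Cd5 and Lck were at 0 in both libraries, and those at 0 in a single library included Cd2 in the dKO-labelled library and Cd3e in the control. Their part in the values of Smoc2, Dkk3, Tcf7 and Ccnd2 was not tested.

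Of the crypt cell types, transit-amplifying and proliferation markers had 294 reads in the dKO-labelled library and 132 in the control, a ratio of 2.01 (1.63 to 2.48). All 13 genes of this list were detected in both libraries and had more unscaled reads in the dKO-labelled library. So had 53.4% of all symbols, or 11072 of the 13925 symbols with a read in that library. The 13 genes ranged from 2 to 124 reads in the dKO-labelled library and from 1 to 83 in the control. Mki67 had 32 and 12 reads. Paneth cell markers had 3591 and 1865 reads, a ratio of 1.74 (1.64 to 1.84). All 9 genes had more unscaled reads in the dKO-labelled library, again beside 53.4% of all symbols, those without a read included. Reads per gene ranged from 4 to 1386 in the dKO-labelled library and from 3 to 738 in the control. Reads of the defensin genes on this list can be shared with near-identical copies. The part of a different crypt content in the stem cell marker counts was not tested.

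Markers of the differentiated lineages varied in direction. Enterocyte markers, all 13 of them detected in both libraries, had 17106 reads in the dKO-labelled library and 18105 in the control. The ratio of 0.852 (0.834 to 0.870) became 1.19 (1.16 to 1.22) without Apob, the gene with the most reads. More unscaled reads in the dKO-labelled library were found for 12 of the 13, and for 53.4% of all symbols, those without a read included. Goblet cell markers had 3555 and 4689 reads (ratio 0.683, 0.654 to 0.714), with 3 genes higher in reads and 4 lower. Enteroendocrine markers had 2594 and 1460 (1.60, 1.50 to 1.71), also with 3 genes higher and 4 lower. Chga (920 and 395) and Chgb (1192 and 593) held most of these reads, while Pyy and Sst were called lower. Tuft cell markers had 132 and 305 reads (0.390, 0.316 to 0.480). The tuft cell genes Dclk1 and Gfi1b and the leukocyte gene Ptprc had no read in either library. Other markers on the same lists had reads, among them Trpm5 with 33 and 189 and Lyz2 with 64 and 48. How shared reads were assigned is not known, so these zeros cannot be read as absence of the RNA. Without Trpm5 the tuft cell ratio was 0.769 (0.582 to 1.01). Endothelial markers had 55 and 66 reads, a ratio of 0.751 (0.515 to 1.09) that became 2.50 (1.44 to 4.56) without Tie1, and macrophage and pan-leukocyte markers had 93 and 70 (1.20, 0.869 to 1.66).

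Where the members stood against a ratio of 1 followed the scaling. Upper-quartile, TMM and total-count scaling lowered every log2 ratio by 0.64, 0.53 and 0.30, relative to the deposited size factors. Under the first 2 of these, Axin2, Ephb3, Bambi and Msi1 changed sign, and under total counts Axin2 alone among the members with at least 10 reads. Ccnd2 stayed at least 2-fold higher under each of these scalings, and Kremen2 under none of them.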

How the data were processed

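Villus RNA of 1 library per genotype was analysed from a single table. Per the labels, libraries were made with the TruSeq RNA v2 kit; the submitters' processing notes name TopHat, DESeq and the mm9 build, without versions. No source used here names the counting tool. The 2 signal columns hold normalised counts that the authors deposited (base means, per the file headers). All values are whole multiples of the column's smallest, 0.949 for the dKO-labelled and 1.05 for the control library (tolerance 0.001 of a step), and none is 0. Reads were recovered as steps minus 1, since 1 read seems to have been added, an inference from the values. The deposited fold (ratio) and log2 columns are the authors' own, and the deposited p-value column is unadjusted.

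The table held 22040 rows, and 32 symbols turned into dates were restored through RefSeq accessions (GRCm38.p6, names alone). Transcript lengths and overlapping exons came from GENCODE M21, with 40 of 40 members matched. No mm9 coordinates are printed. Genes with a mean of 20 or more counted as measured and were called at 2-fold, with a pseudocount of 1. Intervals are 95% Clopper-Pearson intervals conditional on the summed reads. For a control of 0 reads, the lower limit of the interval is given, or the fold against a floor of 3 reads per library.

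With 1 library per genotype no test was made. Members and lists were chosen with earlier results of these data known. Every member is accounted for, and values are given in full for those with at least 10 reads in a library. Of the pathway lists, up to 4 measured genes with the largest absolute log2 ratio are named, and markers of other cell types are given mainly as sums. Lists were described by counts, medians and summed reads. The functions were tested on simulated data. Values were computed with scipy 1.17.1, numpy 2.4.6 and pandas 2.3.3 in Python 3.11.15, figures drawn with matplotlib 3.10.9, and TMM factors came from edgeR 4.0.16 in R 4.3.3.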

Additional observations from a re-analysis of the deposited data

How the results depend on the processing

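With 1 library per genotype no replicate could be left out. No paired analysis was possible because the groups share no replicate pairs and no test was made. Members called higher numbered 2 and called lower 0. The number higher was 1, Ccnd2, with scaling by TMM, the upper quartile or total counts, the median of measured genes set to 0, a pseudocount of 5, a mean of at least 50 and a counting interval wholly beyond 2-fold. It was 5 when the mean had to reach 10 and 12 with no filter, where 2 were lower, and 1 (Rgmb) was lower under upper-quartile scaling. The authors' unadjusted p-values, a setting added after seeing the data, gave 0 in each direction. Taking off the added read, also added later, gave 3 and 0, and summing rows 2 and 0.

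The log2 ratio of summed stem cell marker reads, 0.97, was 0.33 with the upper quartile, 0.44 with TMM, 0.46 with the median set to 0 and 1.496 without Rgmb. For Wnt targets, 1.06 became 0.76 with total counts, 0.53 with TMM, 0.55 with the median set to 0, 0.41 with the upper quartile and 0.45 without Ccnd2. For antagonists, 1.37 became 0.73 with the upper quartile and stayed within its counting interval otherwise. None of these 3 sums changed sign under these settings. The R-spondin list without Lgr4 had 0 control reads and gave no ratio. Detection of at least 3 reads held for 26 members in the dKO-labelled library and 20 in the control. Depth limits most members: 31 of 40 lay under the threshold of 20, and for Lgr5 the interval spans a ratio of 1.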
